A study of Mus musculus with 22 samples.

Results

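Vessel genes of the heart were followed through 4 groups of mice that differed in thyroid hormone supply and in a thyroid hormone receptor. A list of 56 genes of endothelial cells and of angiogenesis was looked up by gene symbol in the annotation of the array. Of these, 54 were named by a probe set, each by a single one, and all 54 passed the minimum for testing, an average log2 value over 4 across 22 arrays, as did 21092 of 22206 gene probe sets. Egfl7 and Nrp1 had no named probe set and were not analysed here.

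RNA came from whole hearts of male C57/BL6NCr mice, aged 3 to 6 months and kept singly at 30 °C, with 1 Clariom S Mouse array for each sample. The groups were TRα1+m mice on T3 (n = 5), TRα1+m mice on water (n = 5), wild-type mice on T3 (n = 6) and wild-type mice on water (n = 6). TRα1+m mice carry the R384C mutation of thyroid hormone receptor α1 on a single allele, which weakens the response of the receptor to hormone in every tissue and from before birth. T3, the active thyroid hormone, was given at 0.5 mg/L in the drinking water for 12 days, and the water of all 4 groups contained 0.01% BSA. According to the study, treated TRα1+m mice had somewhat more T3 in serum than treated wild-type mice, so hormone level and genotype cannot be told apart among treated mice.

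Endothelial cells line every blood vessel, and in the heart a dense capillary net supplies each muscle fibre. VEGF ligands act through the receptors Kdr, Flt1 and Flt4 with neuropilins as partners, angiopoietins act through Tek and Tie1, and Notch and apelin signals shape sprouts and vessel calibre. Transcription factors of the ETS and SOX families keep the cells endothelial, while Prox1 directs the lymphatic fate and is also made by heart muscle cells.

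Levels below are log2 intensities as deposited, differences are on the same log2 scale with their standard error (SE) from limma, and a gene was called at an adjusted p below 0.05 (Benjamini-Hochberg over the 21092 probe sets). P-values measure the spread between the arrays of a group, taken here as separate mice. The genotypes lay on different scales, since the array median of gene probe sets ran from 6.99 to 7.09 in TRα1+m hearts and from 6.46 to 6.63 in wild-type hearts. Of the 54 genes, 47 lay above the median negative-control probe set in all 4 groups, while Sox17, Tal1, Sele and Selp lay below it in all 4 and Notch1, Procr and Icam1 in some. The 12 measured markers of endothelial identity were above it throughout. Thra, the gene that carries the mutation, was higher in TRα1+m than in wild type and lower on T3 than on water in both, with medians of 11.20 and 12.23 on T3 and water in TRα1+m and 9.81 and 10.63 in wild type, and a level does not show the base change. Array 6 of wild type on T3 and array 3 of wild type on water lay lowest on the third principal component (-44.2 and -37.9). It also spread the other water arrays, from -22.2 to 26.8 in wild type and from -23.9 to 29.3 in TRα1+m. With the 2 lowest arrays left out together no count of called genes moved by more than 1.

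T3 raised many of the vessel genes in both genotypes and lowered few. The genes were chosen with earlier results of these data known, so the counts describe the list and do not test it. In TRα1+m hearts 20 of the 54 genes were higher and 2 lower on T3 than on water (37.0% and 3.7%), where 8.24% of all probe sets tested were called higher and 6.92% lower. In wild-type hearts 17 were higher and 2 lower (31.5% and 3.7%), against 6.26% and 6.49% of all probe sets. These shares were not matched for level. Of the 54 genes, 47 lay above the median negative control in all 4 groups. Array medians of gene probe sets (6.46 to 7.09) lay near the group medians of the negative controls (6.14 to 6.68). The median difference of the 54 genes was 0.40 in TRα1+m and 0.28 in wild type, beside -0.02 and 0.01 over all probe sets. The same 12 genes were called higher in both genotypes, the same 2 lower in both, 8 were called higher in TRα1+m alone and 5 in wild type alone, and none in opposite directions. These T3 comparisons share no array. Across the 54 genes, which are not independent replicates, the T3 differences seen in TRα1+m and in wild type correlated at 0.69 (Pearson) and 0.58 (Spearman). Over all probe sets tested the Pearson value was 0.74, so the likeness of the genotypes was not particular to these genes. In whole hearts, a change in the number of endothelial cells and a change in RNA per cell cannot be told apart.

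**Figure D1:**
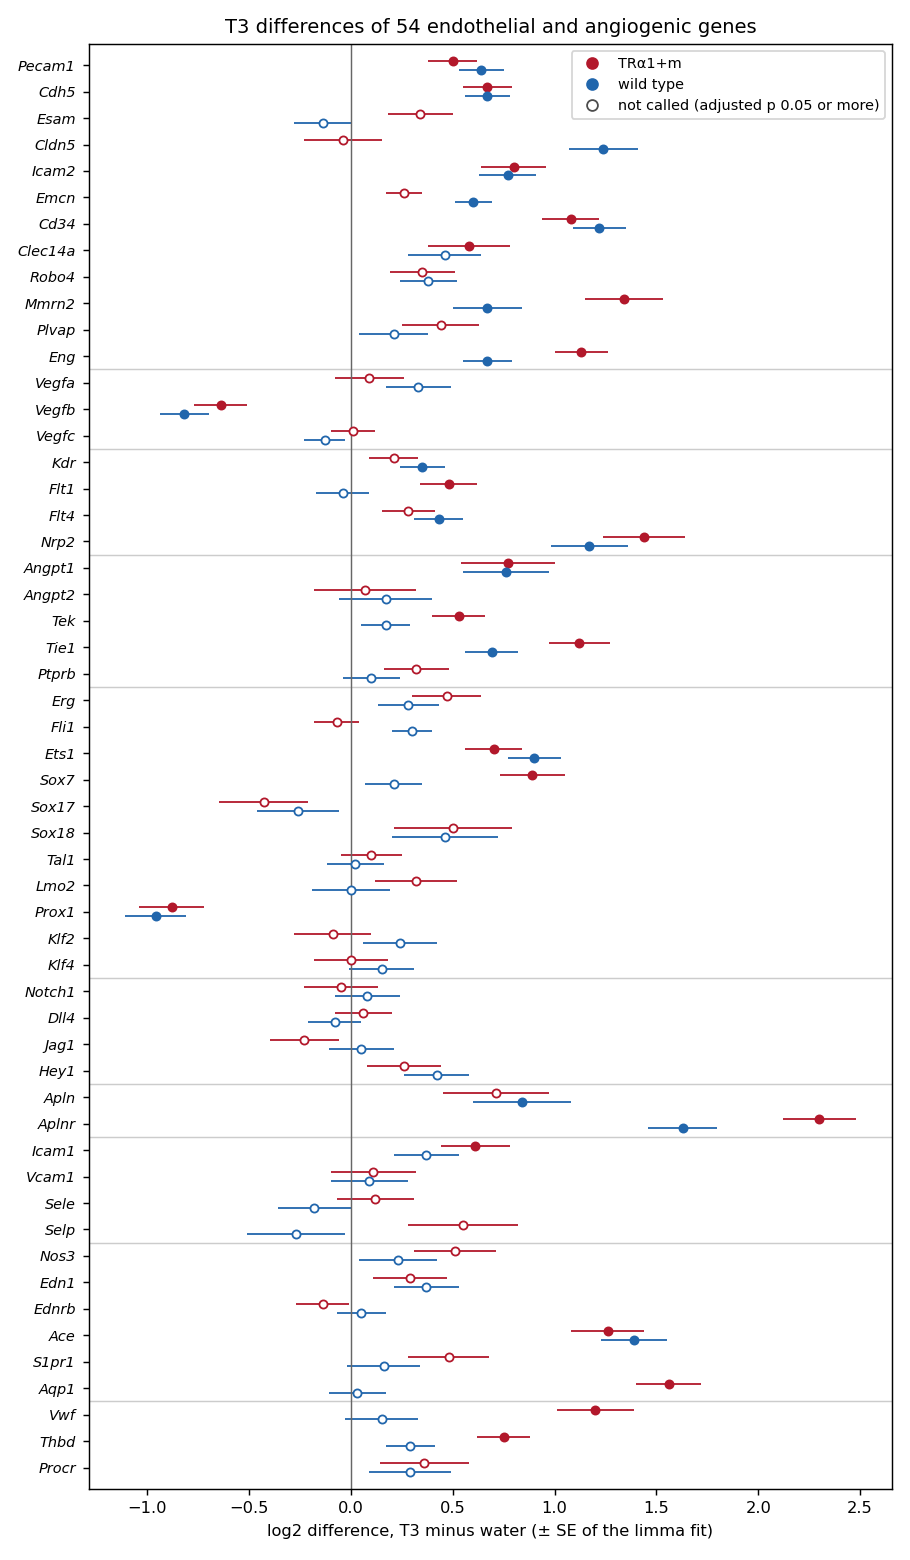
Log2 differences between T3 and water (horizontal axis) for the 54 genes in order of role, in TRα1+m (red, above) and wild type (blue, below), with limma's SE as bars and open circles for genes that were not called. Most filled circles lie to the right of 0, and Vegfb and Prox1 lie to the left of it in both genotypes.

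Among genes of endothelial identity, junctions and surface, 7 of 12 rose on T3 in TRα1+m hearts and 8 of 12 in wild-type hearts, and none fell. Cd34, a sialomucin on the surface of capillary endothelium and progenitor cells, had levels of 14.77, 14.29, 14.46, 14.68 and 14.55 on T3 in TRα1+m, against 13.10, 13.92, 13.56, 13.50 and 13.26 on water. In wild type its lowest, median and highest levels were 15.14, 15.30 and 15.47 on T3, against 13.66, 14.12 and 14.26 on water. No T3 array of Cd34 overlapped a water array of its genotype, and the differences were 1.08 ± 0.14 in TRα1+m (adjusted p = 4.9e-06) and 1.22 ± 0.13 in wild type (adjusted p = 3.9e-07). Eng, the TGF-β and BMP co-receptor endoglin, reached 14.61, 15.06, 15.45, 15.00 and 15.17 on T3 in TRα1+m, against 13.77, 14.25, 13.73, 13.91 and 13.99 on water. In wild type, Eng ran from 15.10 over a median of 15.21 to 15.31 on T3, against 14.34, 14.52 and 14.73 on water. The groups did not overlap in either genotype, with differences of 1.13 ± 0.13 in TRα1+m (adjusted p = 1e-06) and 0.67 ± 0.12 in wild type (adjusted p = 0.00035). Cdh5, the VE-cadherin of endothelial junctions, rose by 0.67 ± 0.12 in TRα1+m and 0.67 ± 0.11 in wild type. Pecam1, a junctional adhesion molecule, rose by 0.50 ± 0.12 in TRα1+m and 0.64 ± 0.11 in wild type, and Icam2 by 0.80 ± 0.16 and 0.77 ± 0.14 in the same order. Mmrn2, a matrix protein that binds Clec14a, rose by 1.34 ± 0.19 in TRα1+m and 0.67 ± 0.17 in wild type. Emcn, a mucin of capillaries and veins, was called in wild type at 0.60 ± 0.09, with 0.26 ± 0.09 in TRα1+m (adjusted p = 0.07). The call of Clec14a in TRα1+m, at 0.58 ± 0.20 (adjusted p = 0.049), was lost when any of 17 of the 22 arrays was left out, at adjusted p-values of up to 0.12 without TRα1+m water array 4. Esam, Robo4 and Plvap, which makes the diaphragms of fenestrae, were called in neither genotype, with differences from -0.14 to 0.44.

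None of the 3 VEGF ligands was called higher. Vegfb, a ligand of Flt1 that is abundant in heart muscle, fell on T3 in both genotypes. Its levels in TRα1+m were 13.75, 13.96, 14.28, 14.10 and 14.22 on T3, against 14.94, 14.56, 14.62, 14.89 and 14.48 on water. Wild-type hearts had a lowest, median and highest level of 14.21, 14.39 and 14.73 on T3, against 15.03, 15.19 and 15.41 on water. All T3 arrays lay below all water arrays of their genotype, and Vegfb fell by 0.64 ± 0.13 in TRα1+m (adjusted p = 0.0011) and by 0.82 ± 0.12 in wild type (adjusted p = 2.8e-05). Vegfa, the main angiogenic ligand, had levels of 13.70, 13.92, 13.69, 13.60 and 13.35 on T3 in TRα1+m, against 13.62, 13.60, 13.28, 13.81 and 13.49 on water, which overlap. In wild type Vegfa ran from 13.45 over 13.79 to 14.01 on T3, against 13.06, 13.24 and 14.11 on water. Neither difference was called (0.09 ± 0.17 in TRα1+m and 0.33 ± 0.16 in wild type, adjusted p = 0.82 and 0.21), and in wild type the call appeared without wild-type water array 6, the highest of its group (0.47, adjusted p = 0.025). The lymphangiogenic ligand Vegfc was not called at 0.01 ± 0.11 in TRα1+m and -0.13 ± 0.10 in wild type.

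Of the VEGF receptors, 2 of 4 were called higher on T3 in TRα1+m and 3 of 4 in wild type. Nrp2, a co-receptor for VEGF and class 3 semaphorins, had levels of 10.48, 10.46, 10.66, 10.37 and 10.53 on T3 in TRα1+m, against 8.73, 9.46, 9.09, 9.44 and 8.61 on water. In wild type its lowest, median and highest levels were 9.77, 10.45 and 11.19 on T3, against 8.95, 9.28 and 9.56 on water. Nrp2 rose without overlap in both genotypes, by 1.44 ± 0.20 in TRα1+m (adjusted p = 1.6e-05) and 1.17 ± 0.19 in wild type (adjusted p = 9e-05). Flt1, which encodes VEGF receptor 1, was at 12.63, 12.25, 12.30, 12.52 and 12.56 on T3 in TRα1+m, against 12.06, 12.16, 11.72, 12.12 and 11.80 on water. Wild-type levels of Flt1 ran from 12.05 over 12.42 to 12.71 on T3, against 12.22, 12.46 and 12.78 on water, and overlapped. Its difference was 0.48 ± 0.14 in TRα1+m (adjusted p = 0.021) and -0.04 ± 0.13 in wild type. That call ended without any of TRα1+m water arrays 3 and 5 and TRα1+m T3 arrays 1 and 5, at 0.42, 0.44, 0.44 and 0.46 (adjusted p = 0.067, 0.059, 0.058 and 0.052). Flt4, the lymphatic VEGF receptor 3, had levels of 7.96, 8.26, 7.99, 8.29 and 8.56 on T3 in TRα1+m, against 7.78, 8.11, 8.12, 7.88 and 7.79 on water. Its lowest, median and highest levels in wild type were 7.75, 8.01 and 8.14 on T3, against 7.19, 7.60 and 7.76 on water. The groups overlapped, slightly so in wild type, and only the wild-type difference was called (0.43 ± 0.12, adjusted p = 0.019, against 0.28 ± 0.13 in TRα1+m), a call lost without wild-type water array 5 (0.36, adjusted p = 0.058). Kdr, the main signalling receptor for Vegfa, was called in wild type at 0.35 ± 0.11 (adjusted p = 0.046) but not when any of 15 of the 22 arrays was left out, at adjusted p-values of up to 0.13 without wild-type water array 5. In TRα1+m it stood at 0.21 ± 0.12.

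In the angiopoietin-Tie axis, the receptors and 1 ligand moved. Tie1, an orphan receptor that pairs with Tek, was at 11.36, 10.86, 11.06, 11.51 and 11.34 on T3 in TRα1+m, against 10.13, 10.10, 10.29, 9.92 and 10.10 on water. In wild type it ran from 10.90 over 11.02 to 11.53 on T3, against 10.02, 10.43 and 10.75 on water. The groups were separate, and Tie1 rose by 1.12 ± 0.15 in TRα1+m (adjusted p = 5.9e-06) and by 0.69 ± 0.13 in wild type (adjusted p = 0.00088). Tek, the receptor for angiopoietins, had levels of 12.07, 11.89, 12.21, 11.90 and 11.82 on T3 in TRα1+m, against 11.30, 11.52, 11.22, 11.58 and 11.64 on water. Its wild-type levels overlapped, with 11.09, 11.23 and 11.57 as lowest, median and highest on T3, against 10.74, 11.13 and 11.31 on water. The difference was 0.53 ± 0.13 in TRα1+m (adjusted p = 0.0048) and 0.17 ± 0.12 in wild type (adjusted p = 0.44). Angpt1, the stabilising ligand of Tek made by cells around the endothelium, was called in both, at 0.77 ± 0.23 in TRα1+m (adjusted p = 0.025) and 0.76 ± 0.21 in wild type (adjusted p = 0.016). In TRα1+m the Angpt1 call was lost without any of water arrays 1 and 3 and T3 arrays 3, 4 and 5, at adjusted p-values between 0.052 and 0.086. TRα1+m T3 array 1, at 12.87, lay below all TRα1+m water arrays (13.13 to 13.57), and the other T3 arrays ran from 14.02 to 14.62. Angpt2, its antagonist, and Ptprb, the phosphatase that restrains Tek, were called in neither genotype.

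Of 11 transcription factors, 2 rose and 1 fell on T3 in TRα1+m, and 1 rose and 1 fell in wild type. Ets1, an ETS factor of angiogenic endothelium that is also present in other cells, had levels of 11.53, 11.57, 11.45, 11.50 and 11.59 on T3 in TRα1+m, against 10.71, 10.91, 11.02, 10.68 and 10.82 on water. In wild type its lowest, median and highest levels were 11.65, 11.84 and 12.05 on T3, against 10.53, 10.92 and 11.37 on water. The rise was 0.70 ± 0.14 in TRα1+m (adjusted p = 0.001) and 0.90 ± 0.13 in wild type (adjusted p = 3e-05), with no overlap. Prox1 went the other way, with 11.62, 11.74, 11.97, 12.16 and 11.85 on T3 in TRα1+m, against 12.63, 12.67, 12.81, 13.05 and 12.57 on water. Its wild-type levels were 10.98, 11.17 and 11.35 on T3 (lowest, median, highest), against 11.61, 12.20 and 12.68 on water. Prox1 fell by 0.88 ± 0.16 in TRα1+m (adjusted p = 0.00041) and by 0.96 ± 0.15 in wild type (adjusted p = 6.4e-05), again without overlap. Of 5 lymphatic endothelial markers, Ccl21a fell with it by 1.40 ± 0.18 in TRα1+m and 0.75 ± 0.16 in wild type, and Mmrn1 fell by 0.59 ± 0.18 in wild type, while Lyve1, Pdpn and Reln were not called. The mean level of these 5 markers ran from 8.83 to 8.99 on T3 and 9.03 to 9.34 on water in TRα1+m, and from 8.16 to 8.64 and 8.34 to 8.73 in wild type. Their part in the Prox1 result was not tested. Sox7, an endothelial SOX factor, was called in TRα1+m at 0.89 ± 0.16 (adjusted p = 2e-04), with 0.21 ± 0.14 in wild type. The ETS factors Erg and Fli1, the SOX factors Sox17 and Sox18, the haemato-endothelial factors Tal1 and Lmo2 and the flow-responsive factors Klf2 and Klf4 were called in neither genotype, with differences from -0.43 to 0.50.

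No Notch gene was called among Notch1, the ligands Dll4 and Jag1, and the target Hey1. Hey1 came closest, at 10.51, 10.32, 10.33, 10.35 and 10.18 on T3 in TRα1+m, against 10.57, 9.97, 9.91, 10.15 and 9.82 on water, and in wild type at 10.03, 10.15 and 10.32 (lowest, median, highest) on T3, against 8.95, 9.78 and 10.38 on water. Its differences of 0.26 ± 0.18 in TRα1+m and 0.42 ± 0.16 in wild type had adjusted p-values of 0.43 and 0.11, and the wild-type value was called without water array 2 (0.55, adjusted p = 0.018). Jag1 had levels of 8.78, 8.84, 8.44, 8.80 and 8.75 on T3 in TRα1+m, against 8.69, 9.24, 8.68, 9.25 and 8.92 on water, a difference of -0.23 ± 0.17 (adjusted p = 0.46). In wild type Jag1 ran from 8.51 over 9.19 to 9.49 on T3, against 8.74, 9.04 and 9.44 on water.

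The apelin receptor gave the greatest T3 difference of the 54 genes in either genotype. Aplnr, the G protein-coupled receptor of sprouting and venous endothelium, was at 12.03, 11.77, 11.76, 11.99 and 11.76 on T3 in TRα1+m, against 9.31, 9.75, 9.46, 9.48 and 9.80 on water. In wild type its lowest, median and highest levels were 11.22, 11.65 and 11.79 on T3, against 9.28, 9.85 and 10.57 on water. Aplnr rose by 2.30 ± 0.18 in TRα1+m (adjusted p = 3.4e-09) and by 1.63 ± 0.17 in wild type (adjusted p = 2.9e-07), with a gap between the groups in both. Its ligand Apln, a peptide of tip cells, had levels of 7.91, 8.0, 8.50, 9.07 and 8.48 on T3 in TRα1+m, against 7.70, 7.86, 7.41, 8.05 and 7.41 on water. Wild-type levels of Apln were 7.50, 8.12 and 8.28 on T3, against 6.27, 7.22 and 7.89 on water, as lowest, median and highest, and overlapped. The difference was 0.71 ± 0.26 in TRα1+m (adjusted p = 0.071) and 0.84 ± 0.24 in wild type (adjusted p = 0.019). Without wild-type water array 3 or 6 the wild-type call was lost (0.65 and 0.74, each at adjusted p = 0.051), and without wild-type water array 3 or TRα1+m T3 array 1 the TRα1+m value was called (0.71 and 0.83, adjusted p = 0.037 and 0.044).

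**Figure D2:**
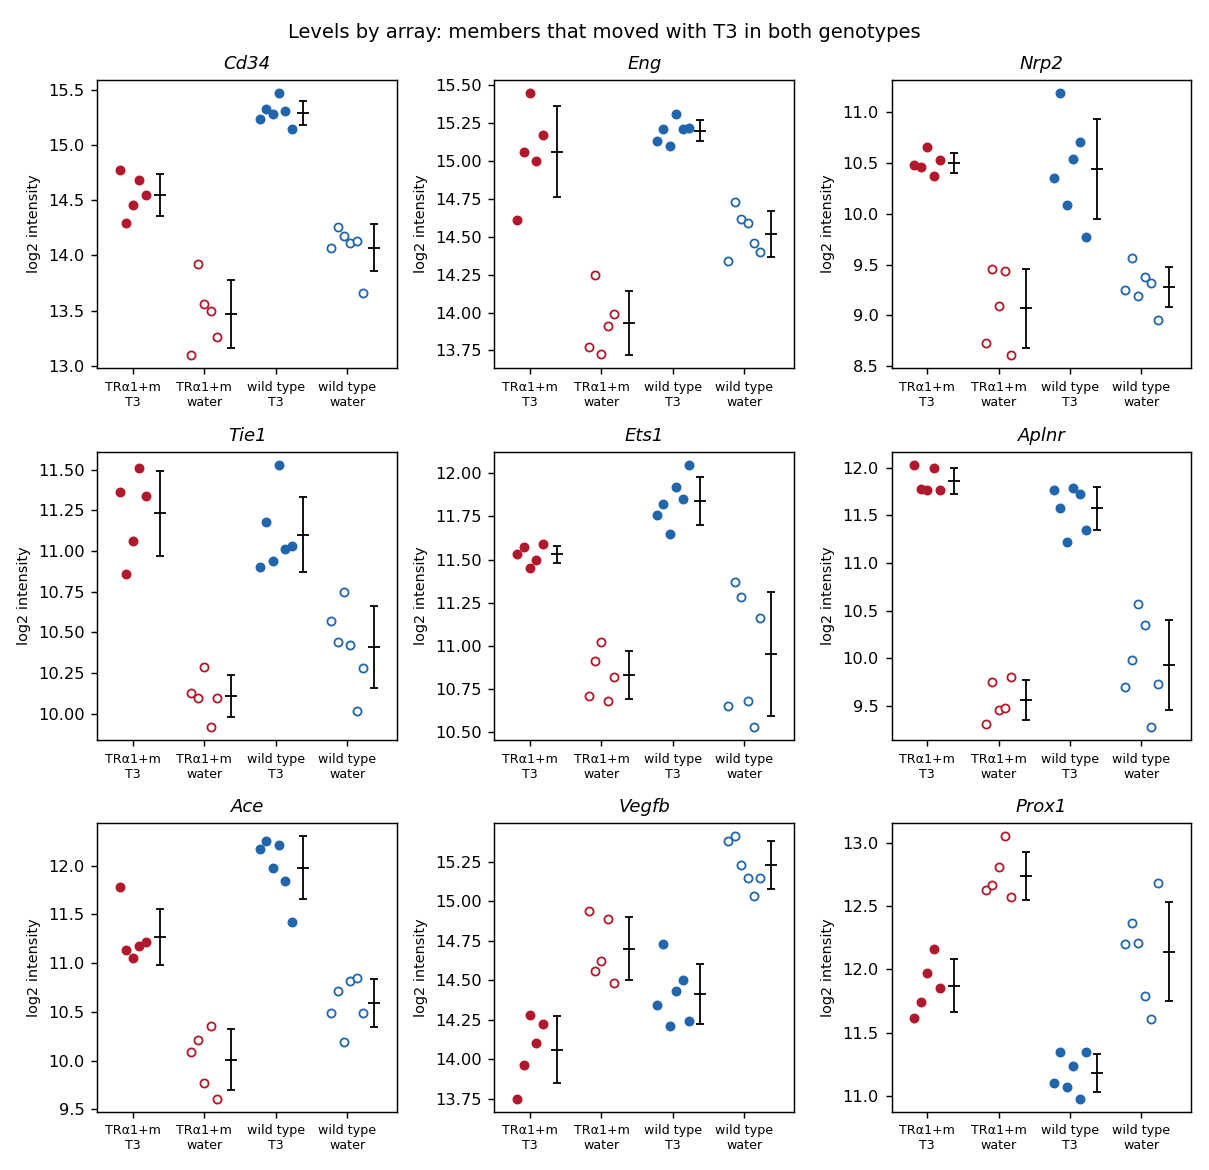
Log2 intensity (vertical axes, not starting at 0) of 9 genes on each array of the 4 groups, with T3 arrays as filled and water arrays as open circles, and mean ± SD as black bars. In each panel all T3 arrays lie on one side of the water arrays of the same genotype, above them for 7 genes and below them for Vegfb and Prox1.

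Of 6 genes of vascular tone, barrier and water transport, Ace and Aqp1 rose on T3 in TRα1+m and Ace alone in wild type. Ace, the angiotensin-converting enzyme on the luminal face of endothelium, had levels of 11.78, 11.13, 11.05, 11.18 and 11.22 on T3 in TRα1+m, against 10.09, 10.21, 9.77, 10.36 and 9.61 on water. Wild-type levels were 11.42, 12.08 and 12.25 on T3 (lowest, median, highest), against 10.19, 10.60 and 10.85 on water. Ace rose by 1.26 ± 0.18 in TRα1+m (adjusted p = 1.6e-05) and 1.39 ± 0.16 in wild type (adjusted p = 2e-06), with no overlap. Nos3, the endothelial nitric oxide synthase, Edn1, the vasoconstrictor endothelin-1, its receptor gene Ednrb, and S1pr1, the sphingosine-1-phosphate receptor of the endothelial barrier, were called in neither genotype, with differences from -0.14 to 0.51.

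Haemostatic genes were called in TRα1+m alone. Vwf, the carrier of factor VIII that endothelium stores for platelet adhesion, had levels of 8.38, 9.46, 9.14, 8.93 and 9.37 on T3 in TRα1+m, against 7.81, 8.17, 8.05, 7.58 and 7.67 on water. In wild type it ran from 8.79 over 9.19 to 9.65 on T3, against 8.81, 9.11 and 9.34 on water. The TRα1+m groups were separate and the wild-type groups overlapped, with differences of 1.20 ± 0.19 (adjusted p = 7.1e-05) and 0.15 ± 0.18 (adjusted p = 0.70). Thbd, the thrombin-binding anticoagulant thrombomodulin, was at 10.72, 10.86, 10.97, 10.86 and 11.15 on T3 in TRα1+m, against 10.29, 10.20, 10.30, 10.24 and 9.80 on water. Its wild-type levels overlapped, with 10.06, 10.37 and 10.57 on T3, against 9.86, 10.01 and 10.41 on water. Thbd rose by 0.75 ± 0.13 in TRα1+m (adjusted p = 0.00025) and stood at 0.29 ± 0.12 in wild type (adjusted p = 0.13). Procr, the endothelial protein C receptor, was not called in either. Among leukocyte adhesion genes, Icam1 had levels of 7.15, 7.04, 6.74, 7.21 and 7.53 on T3 in TRα1+m, against 6.99, 6.49, 6.61, 6.17 and 6.37 on water, where its mean lay below the median negative control. In wild type Icam1 ran from 6.80 over 7.0 to 7.48 on T3, against 6.39, 6.74 and 6.89 on water. It was called in TRα1+m at 0.61 ± 0.17 (adjusted p = 0.016), a call lost without water array 4 (0.52, adjusted p = 0.057) or T3 array 5 (0.51, adjusted p = 0.06), and in wild type it stood at 0.37 ± 0.16. Selp, P-selectin, had levels of 5.72, 6.58, 5.48, 6.06 and 5.95 on T3 in TRα1+m, against 4.98, 5.80, 5.38, 5.40 and 5.47 on water, and in wild type of 4.40, 5.36 and 5.67 on T3, against 4.78, 5.38 and 6.25 on water. Neither difference of Selp was called, and Vcam1 and Sele were not called in either genotype.

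Other genes of the same pathways, from lists that hold none of the 54, were uneven. Of all probe sets 8.24% were called higher and 6.92% lower on T3 in TRα1+m, and 6.26% and 6.49% in wild type. Of 16 further VEGF, adrenomedullin and sprouting genes, 6 were called higher and none lower in each genotype. Adgrl4, an adhesion receptor of angiogenic endothelium, rose by 0.99 ± 0.11 in TRα1+m and 0.64 ± 0.10 in wild type, and Gpr4, a proton-sensing receptor, by 0.96 ± 0.17 and 0.81 ± 0.15 in the same order. Of 11 further Notch genes, 2 rose and 1 fell in each genotype. Hey2, a Notch target, fell by 0.63 ± 0.14 in TRα1+m and 0.48 ± 0.13 in wild type, and Rbpj, the DNA-binding factor of the pathway, rose by 0.37 ± 0.10 and 0.44 ± 0.09. None of 8 BMP-ALK1 genes was called by limma on T3 in either genotype. Of 9 genes of capillary lipid handling, 3 rose in each, among them Tcf15, a transcription factor of heart capillary endothelium, at 1.45 ± 0.25 in TRα1+m and 0.90 ± 0.23 in wild type. Of 12 hypoxia-induced genes, 3 rose and 2 fell in TRα1+m and 2 rose and 3 fell in wild type. Egln3, an oxygen-sensing prolyl hydroxylase, rose by 2.70 ± 0.17 in TRα1+m and 2.36 ± 0.16 in wild type, while Pdk1, a kinase that inhibits pyruvate dehydrogenase, fell by 1.41 ± 0.12 and 1.40 ± 0.11.

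Markers of other cell types moved on the same arrays. All 7 measured macrophage markers rose in both genotypes, and their mean level ran from 11.00 to 11.27 on T3 and 9.20 to 9.60 on water in TRα1+m, and from 10.72 to 10.92 on T3 and 9.43 to 9.98 on water in wild type. Fibroblast markers rose in 3 of 7 cases in TRα1+m and 5 of 7 in wild type, with mean levels of 12.25 to 12.69 on T3 and 11.52 to 12.40 on water in TRα1+m, and of 12.03 to 12.33 on T3 and 11.26 to 11.77 on water in wild type. Of 8 smooth muscle and pericyte markers, 3 rose and 1 fell in each genotype. Their mean level ran from 11.83 to 11.96 on T3 and 11.42 to 12.03 on water in TRα1+m, and from 11.43 to 11.86 on T3 and 11.03 to 11.86 on water in wild type. Cell division genes rose in 6 of 7 cases in TRα1+m and 2 of 7 in wild type, with Mki67 at 2.57 ± 0.36 and 1.62 ± 0.33 in that order. Of 8 cardiomyocyte markers, 1 rose and none fell on T3 in TRα1+m, and none rose and 1 fell in wild type. Their mean level lay between 18.31 and 18.54 on all arrays, where the highest deposited value was 19.93. It was not tested if values so near the top are compressed. The part of these cells in the vessel gene results was not tested.

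**Figure D3:**
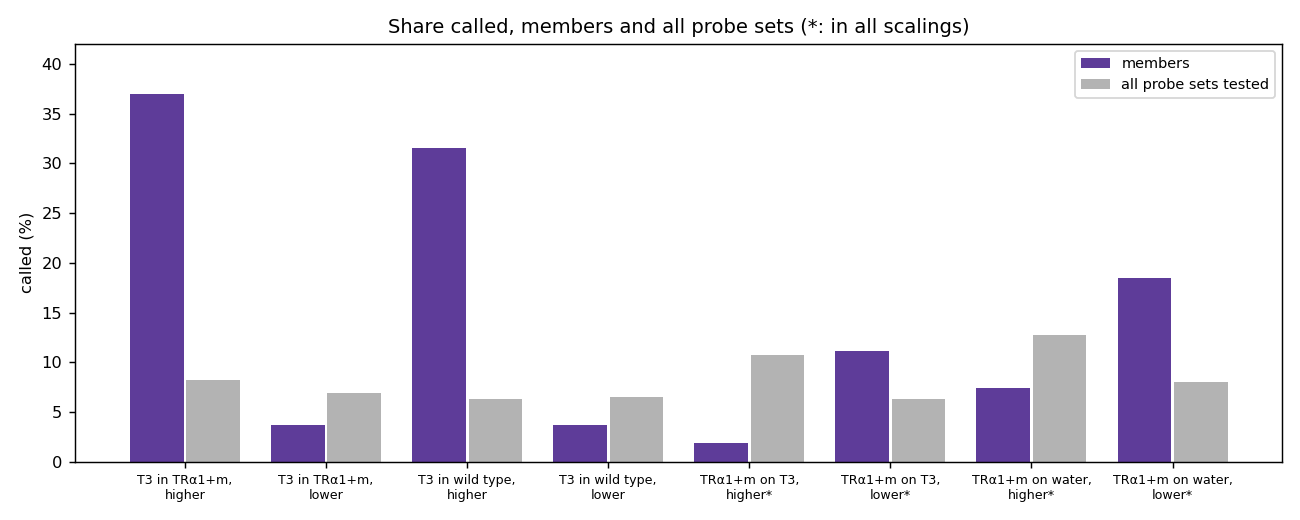
Share called in percent (vertical axis) among the 54 genes (purple) and among all probe sets tested (grey), by comparison and direction. On T3, 37.0% of the 54 genes were called higher in TRα1+m and 31.5% in wild type, beside 8.24% and 6.26% of all probe sets. The genotype shares (asterisks) count calls made in the same direction in 3 scalings. The 54 genes were chosen with earlier results of these data known, and the shares were not matched for level.

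The T3 response itself was called as different between the genotypes for 2 of the 54 genes, Aqp1 and, less firmly, Cldn5. Of all probe sets 0.185% were called as more positive in TRα1+m and 0.0901% as more negative. Aqp1, the water channel of capillary endothelium and of red cells, had levels of 13.82, 14.22, 14.44, 14.34 and 14.48 on T3 in TRα1+m, against 12.85, 12.46, 12.83, 12.59 and 12.76 on water. In wild type its lowest, median and highest levels were 14.55, 14.81 and 15.17 on T3, against 14.35, 14.90 and 15.05 on water. TRα1+m hearts on water thus lay below all other arrays, T3 separated the TRα1+m groups, and the wild-type groups overlapped. The T3 difference was 1.56 ± 0.16 in TRα1+m (adjusted p = 9e-08) and 0.03 ± 0.14 in wild type (adjusted p = 0.93), and the interaction was 1.53 ± 0.21 (95% confidence interval 1.10 to 1.96, adjusted p = 7e-04). Without any single array the interaction stayed called. Alas2, the erythroid enzyme of haem synthesis, was lower in TRα1+m on water than in wild type on water as well (-1.04 ± 0.43, adjusted p = 0.047), with 10.16, 10.26 and 11.23 as lowest, median and highest on T3 and 8.60, 9.46 and 9.98 on water in TRα1+m, and 9.44, 9.93 and 12.49 on T3 and 9.77, 10.10 and 11.76 on water in wild type. Of 10 erythroid genes, a list added after the values had been seen, 5 were called higher and Alas2 lower in TRα1+m on water. Those calls are from the deposited values, in which 46.5% of all probe sets were called higher and 8.12% lower. After quantile normalization 4 were higher and Alas2, Sptb and Trim10 lower, where 18.9% and 21% of all probe sets were. The T3 interaction was called for none of the 10 genes (adjusted p from 0.69 to 0.99). Alas2, Slc4a1 and Sptb lay above the median negative control and the others mostly below it, and their part in the Aqp1 result was not tested.

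Cldn5, the tight junction protein claudin-5, differed in the opposite sense. Its levels were 10.13, 10.15, 10.01, 10.91 and 10.18 on T3 in TRα1+m, against 10.38, 10.48, 10.24, 10.60 and 9.85 on water. In wild type they ran from 9.15 over 9.35 to 10.08 on T3, against 7.88, 8.13 and 8.58 on water. The TRα1+m groups overlapped at a high level, and the wild-type groups were separate. T3 raised Cldn5 by 1.24 ± 0.17 in wild type (adjusted p = 1.8e-05), with -0.04 ± 0.19 in TRα1+m (adjusted p = 0.94). The interaction of -1.28 ± 0.26 (95% confidence interval -1.81 to -0.74, adjusted p = 0.026) was not called without any of wild-type water arrays 1 and 5, TRα1+m water arrays 1 and 4 and TRα1+m T3 arrays 2, 3 and 5, at -1.20 to -1.26 (adjusted p from 0.051 to 0.067). Vwf had an interaction of 1.05 ± 0.26 (adjusted p = 0.10, 95% confidence interval 0.51 to 1.59), which was called without TRα1+m T3 array 1 (1.22, adjusted p = 0.018). For the other genes called in a single genotype, the difference between the genotypes was not called.

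The promoters of 6 of these genes are shown because they stand for the patterns above, with Aqp1 and Cldn5 differing in T3 response between genotypes, Cd34, Eng and Tie1 rising in both and Vegfb falling in both. Each runs 5′ to 3′ on the strand of the gene over 300 bases, from 250 before to 50 after the annotated start in RefSeq (GRCm38.p6). Aqp1 is read from chr6:55336049-55336348 (plus strand), Cldn5 from chr16:18776597-18776896 (plus), Cd34 from chr1:194938571-194938870 (plus), Eng from chr2:32646345-32646644 (plus), Tie1 from chr4:118489800-118490099 (minus) and Vegfb from chr19:6987602-6987901 (minus). Capitals mark AGGTCA, the core sequence bound by nuclear receptors such as thyroid hormone receptors, and AGGAAG, a core of ETS factor sites. Each is marked on either strand, so that AGGAAG on the opposite strand reads CTTCCT.
Aqp1: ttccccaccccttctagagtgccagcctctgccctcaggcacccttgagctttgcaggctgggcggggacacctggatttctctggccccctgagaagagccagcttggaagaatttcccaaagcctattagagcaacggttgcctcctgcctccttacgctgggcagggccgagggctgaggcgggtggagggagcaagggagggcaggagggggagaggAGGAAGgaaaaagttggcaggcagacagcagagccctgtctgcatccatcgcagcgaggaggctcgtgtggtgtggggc
Cldn5: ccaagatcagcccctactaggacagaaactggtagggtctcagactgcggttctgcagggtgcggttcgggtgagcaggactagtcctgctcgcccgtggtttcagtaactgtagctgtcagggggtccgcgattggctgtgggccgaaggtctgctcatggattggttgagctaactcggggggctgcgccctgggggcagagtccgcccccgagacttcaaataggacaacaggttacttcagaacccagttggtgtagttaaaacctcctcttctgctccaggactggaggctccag
Cd34: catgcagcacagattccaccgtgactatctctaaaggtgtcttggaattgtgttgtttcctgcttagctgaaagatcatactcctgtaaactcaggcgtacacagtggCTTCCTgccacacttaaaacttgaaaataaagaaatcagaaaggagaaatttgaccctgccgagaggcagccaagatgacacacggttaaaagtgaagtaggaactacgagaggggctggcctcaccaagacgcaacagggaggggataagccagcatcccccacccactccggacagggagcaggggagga
Eng: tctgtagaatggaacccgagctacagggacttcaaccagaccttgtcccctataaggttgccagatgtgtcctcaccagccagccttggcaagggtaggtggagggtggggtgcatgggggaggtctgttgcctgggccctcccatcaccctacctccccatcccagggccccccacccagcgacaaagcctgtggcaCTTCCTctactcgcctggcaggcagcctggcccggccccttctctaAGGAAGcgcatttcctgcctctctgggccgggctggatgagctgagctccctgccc
Tie1: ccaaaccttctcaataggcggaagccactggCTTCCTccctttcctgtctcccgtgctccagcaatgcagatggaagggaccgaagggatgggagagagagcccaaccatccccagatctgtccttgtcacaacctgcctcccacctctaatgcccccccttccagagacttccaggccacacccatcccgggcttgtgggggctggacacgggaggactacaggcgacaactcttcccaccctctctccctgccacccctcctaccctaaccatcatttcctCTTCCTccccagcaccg
Vegfb: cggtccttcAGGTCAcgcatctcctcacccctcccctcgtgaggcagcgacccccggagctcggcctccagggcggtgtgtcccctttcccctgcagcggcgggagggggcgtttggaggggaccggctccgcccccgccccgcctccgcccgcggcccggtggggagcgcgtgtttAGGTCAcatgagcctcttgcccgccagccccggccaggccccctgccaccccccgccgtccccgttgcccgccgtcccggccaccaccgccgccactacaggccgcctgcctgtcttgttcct

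In these windows AGGTCA occurred in Vegfb alone, starting at -241 and -73 from the annotated start. AGGAAG began at -29 in Aqp1, at -142 in Cd34, at -52 and -6 in Eng and at -219 and 34 in Tie1, and neither motif occurred in the Cldn5 window. Promoter windows were given for 34 of the 56 genes, 42 windows in all. AGGTCA was in 21.4% of these 42 windows and in 16.3% of all 32851 windows of the same length, AGGAAG in 35.7% and 35.4%, CGGAAG, another ETS core, in 4.76% and 16.9%, ACGTG, the core of hypoxia factor sites, in 9.52% and 19.6%, and AACAAT, a SOX core, in 7.14% and 10.7%, all on both strands. Of 16 windows of genes called higher on T3 in either genotype, 2 held AGGTCA (12.5%) and 8 held AGGAAG (50%). A match of letters is not a site in use, and no match says nothing of the factor.

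Between genotypes, many directions depended on how the arrays were scaled. On water the deposited values gave 12 genes higher and 10 lower in TRα1+m than in wild type, where 46.5% of all probe sets were called higher and 8.12% lower, since the median of all probe sets lay 0.36 higher in TRα1+m. After quantile normalization over the 22 arrays 5 were higher and 19 lower (18.9% and 21% of all probe sets), and with array medians centred 4 were higher and 29 lower (13.2% and 29.9% of all probe sets). For 22 of the 54 genes the 3 scalings did not give the same sign. In all 3 scalings 4 genes were called higher and 10 lower (7.41% and 18.5%), where 12.7% and 8.06% of all probe sets were. The deposited values lay higher in TRα1+m, so a lower call in them was likely to hold in the other scalings. Over all probe sets 1699 of 1713 lower calls held, against 2688 of 9803 higher calls. Values below give the deposited difference and then the quantile-normalized and the centred one.

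The genes higher in TRα1+m on water in all 3 scalings were Cldn5, S1pr1, Klf4 and Edn1. Cldn5, with the levels given above, was separate between the genotypes on water, at 2.09 ± 0.18 (adjusted p = 1.3e-08, 1.81 and 1.60). S1pr1 had levels of 9.56, 10.04, 9.52, 9.58 and 10.12 in TRα1+m on water, against a lowest, median and highest of 8.37, 8.60 and 9.30 in wild type on water, with no overlap. The difference was 1.09 ± 0.19 (adjusted p = 5.7e-05, 0.82 and 0.59). On T3, S1pr1 was at 9.99, 10.22, 10.06, 10.40 and 10.57 in TRα1+m, against 8.45, 8.78 and 9.50 in wild type, higher by 1.42 ± 0.19 (1.15 and 0.92), and it was the only 1 of the 54 genes called higher on T3 in all 3 scalings. Klf4, a factor that flow induces in endothelium, was at 8.02, 8.15, 7.43, 8.10 and 7.66 in TRα1+m on water, against 6.39, 6.77 and 7.46 in wild type on water, with a narrow overlap, at 1.07 ± 0.17 (0.64 and 0.57). On T3 the Klf4 difference was 0.92 ± 0.17 (0.46 and 0.42), called with the deposited and quantile-normalized values but not with medians centred (adjusted p = 0.072). Edn1 stood at 0.96 ± 0.17 (0.49 and 0.47) on water. Prox1 was higher in TRα1+m on water at 0.60 ± 0.16 and after quantile normalization at 0.50, but not with medians centred (0.11, not called).

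Lower in TRα1+m on water in all 3 scalings were Aqp1, Vwf, Sox7, Mmrn2, Cd34, Eng, Ace, Dll4, Vegfb and Flt1. Aqp1 differed by -2.11 ± 0.15 (adjusted p = 7e-10, -2.19 and -2.60) and Vwf by -1.22 ± 0.18 (adjusted p = 1.3e-05, -1.57 and -1.71), both without overlap. Ppbp, a platelet chemokine gene, was also lower in TRα1+m on water (-2.17 ± 0.62, adjusted p = 0.0053), while Pf4, another platelet gene, stood at 0.67 ± 0.19 and lost its call after quantile normalization (0.33, adjusted p = 0.13). The mean level of 4 platelet markers, which include both, ran from 7.58 to 7.88 in TRα1+m and 7.72 to 9.10 in wild type on water, and their part in the Vwf result was not tested. Dll4, the Notch ligand of tip cells and arteries, had levels of 10.64, 10.57, 10.19, 10.20 and 10.48 in TRα1+m on water, against 10.71, 10.95 and 11.19 in wild type on water, separate at -0.53 ± 0.14 (adjusted p = 0.0023, -0.71 and -1.03). Cd34 differed by -0.60 ± 0.14 (-0.64 and -1.10), Eng by -0.59 ± 0.13 (-0.65 and -1.09), Ace by -0.58 ± 0.17 (-0.80 and -1.08), Vegfb by -0.53 ± 0.12 (-0.60 and -1.03), and Flt1 by -0.49 ± 0.14 (-0.62 and -0.99). The further lists are given beside 46.5% of all probe sets called higher and 8.12% lower on water with the deposited values. After quantile normalization these shares were 18.9% and 21%. Of the 11 further Notch genes, 4 were higher and 1 lower in TRα1+m on water with the deposited values (36.4% and 9.09%). After quantile normalization 2 were higher and 4 lower. Hey2 stood at 1.05 ± 0.13 (0.79 after quantile normalization), and Notch4, the endothelial Notch receptor, at -0.91 ± 0.13 (-1.42), at a TRα1+m level below the negative controls. Of the 16 further VEGF and sprouting genes, 5 were higher and 3 lower (31.2% and 18.8%), and 3 higher and 7 lower after quantile normalization. Pgf, a ligand of Flt1, stood at 1.39 ± 0.21 (0.95 after quantile normalization) and Gpr4 at -0.82 ± 0.16 (-1.09). Of 7 arterial and venous genes, 1 was higher and 2 lower (14.3% and 28.6%), and none higher and 3 lower after quantile normalization. Among the lower ones was Nr2f2, the venous factor COUP-TFII, at -1.16 ± 0.14 (-1.29).

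**Figure D4:**
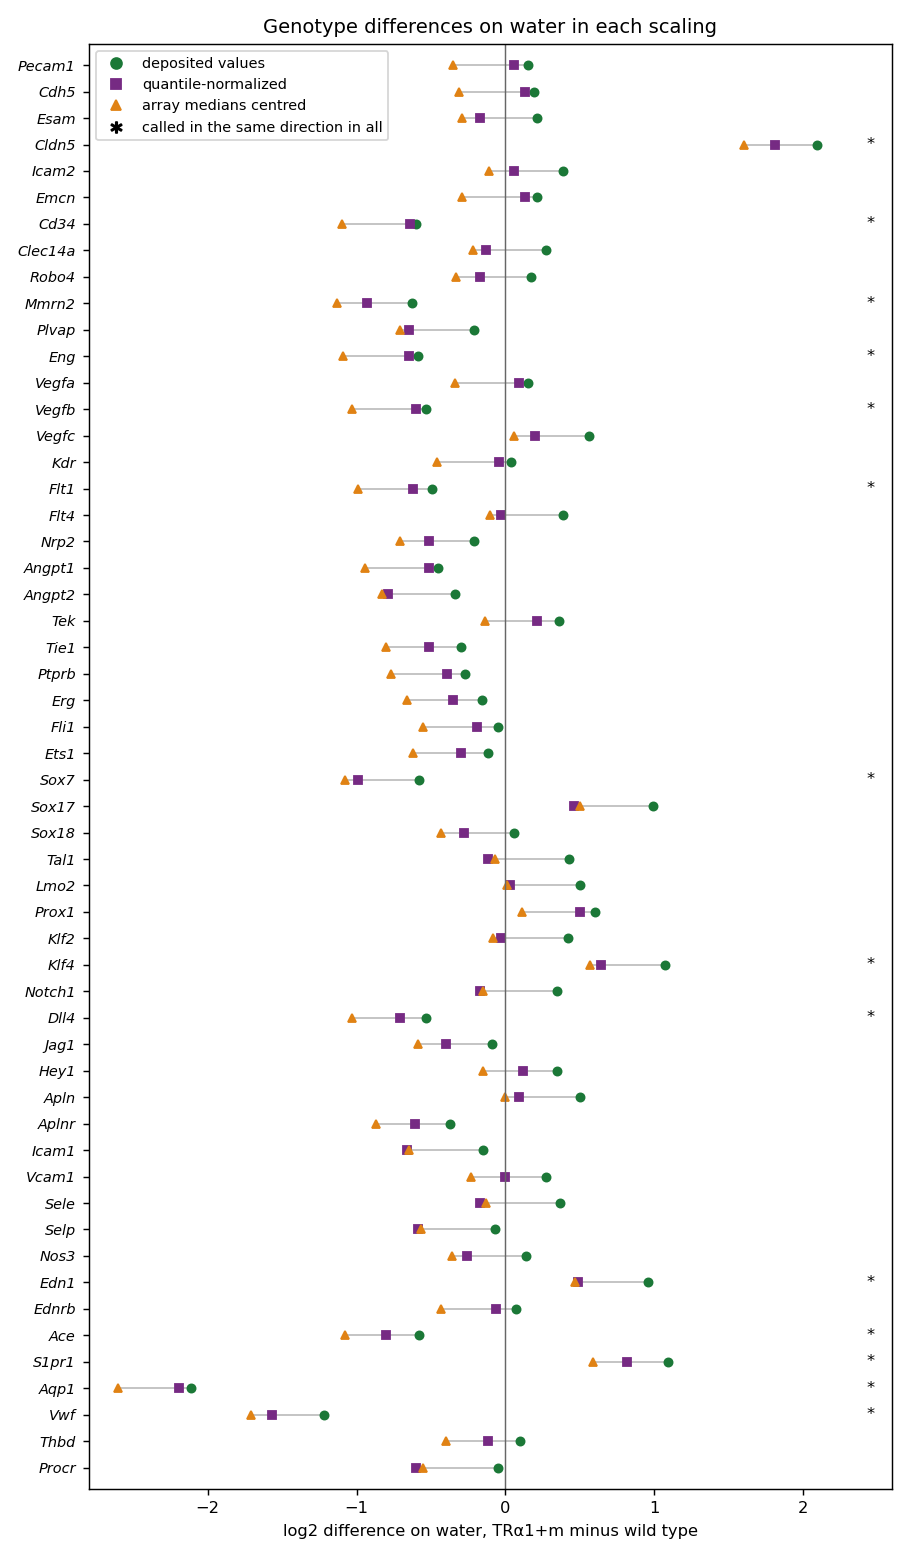
Log2 difference between TRα1+m and wild type on water (horizontal axis) for the 54 genes with the deposited values (green circles), after quantile normalization (purple squares) and with array medians centred (orange triangles), with an asterisk for 14 genes called in the same direction in all 3 scalings. Cldn5 lies far to the right and Aqp1 and Vwf far to the left in every scaling, while many genes straddle 0.

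With T3 in both genotypes, 15 genes were higher and 6 lower in TRα1+m in the deposited values (44.6% and 6.3% of all probe sets), 7 and 10 after quantile normalization (16.7% and 19% of all probe sets), and 1 and 23 with medians centred (11% and 28.1%). The sign was not the same in the 3 scalings for 23 of the 54 genes. All 6 of the lower genes were called in each scaling (11.1%, against 6.27% of all probe sets), and 1 higher gene was, where 10.7% of all probe sets were. As on water, nearly all lower calls held over all probe sets (1323 of 1328). The 6 lower genes were Cd34 at -0.74 ± 0.14, Ace at -0.71 ± 0.17, Aqp1 at -0.58 ± 0.15, Fli1 at -0.42 ± 0.11, Dll4 at -0.39 ± 0.14 and Vegfb at -0.35 ± 0.12. The deposited calls of Dll4 and Vegfb ended without any of 3 arrays each. For Dll4 these were wild-type T3 array 2 and TRα1+m T3 arrays 2 and 4 (-0.34 to -0.35, adjusted p from 0.051 to 0.054), and for Vegfb wild-type T3 array 2 and TRα1+m T3 arrays 1 and 2 (-0.27 to -0.32, adjusted p from 0.054 to 0.084). Eng, Vwf, Mmrn2, Sox7 and Flt1, lower on water, had deposited differences on T3 between -0.17 and 0.10 and were not called there. After quantile normalization Vwf stood at -0.49 (adjusted p = 0.038) on T3, and with medians centred Vwf (-0.66, adjusted p = 0.0073), Eng (-0.64, adjusted p = 0.00068) and Flt1 (-0.46, adjusted p = 0.018) were called lower in TRα1+m. Mmrn2 and Sox7 were called on T3 in none of the 3 scalings. Tek and Thbd were higher in TRα1+m on T3 at 0.72 ± 0.12 and 0.56 ± 0.13, and after quantile normalization at 0.58 and 0.35, but neither was called with medians centred (0.22 and 0.06, adjusted p = 0.18 and 0.77).

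Set against untreated wild-type hearts, treated TRα1+m hearts had 31 of the 54 genes higher and 3 lower in the deposited values (46.8% and 8.29% of all probe sets), 19 higher and 5 lower after quantile normalization (19.2% and 22.3%), 10 higher and 11 lower with medians centred (13% and 32%), and 10 higher and 3 lower in all 3 scalings (12.7% and 8.22% of all probe sets). For 18 genes the 3 scalings did not give the same sign. This comparison shares its TRα1+m arrays with the comparison on T3 and its wild-type arrays with the comparison on water. The 3 lower genes were Vegfb at -1.17 ± 0.12, Aqp1 at -0.54 ± 0.15 and Dll4 at -0.47 ± 0.14, and those higher included Cldn5 at 2.06 ± 0.18, Aplnr at 1.93 ± 0.18, S1pr1 at 1.57 ± 0.19, Nrp2 at 1.23 ± 0.20 and Cdh5 at 0.86 ± 0.11. Mean Aqp1 in treated TRα1+m hearts, at 14.26, lay between its mean in untreated TRα1+m hearts (12.70) and that in untreated wild-type hearts (14.80), and S1pr1 lay above all untreated wild-type arrays.

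**Figure D5:**
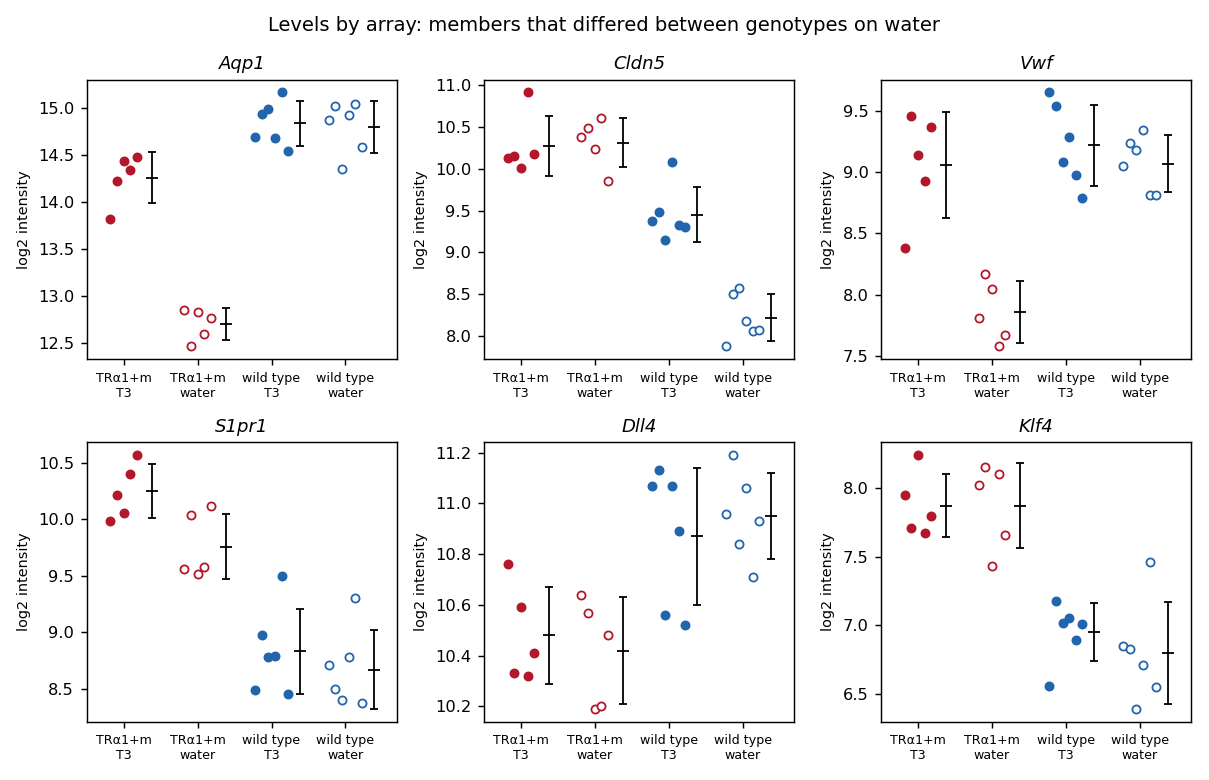
Log2 intensity (vertical axes, not starting at 0) of 6 genes on each array of the 4 groups, with T3 arrays as filled and water arrays as open circles, and mean ± SD as black bars. Aqp1 and Vwf are low in TRα1+m on water and higher on T3, Cldn5 is low in wild type on water, and S1pr1 and Klf4 lie higher and Dll4 lower in TRα1+m under either treatment, although on T3 Klf4 was not called with medians centred and the deposited Dll4 call was lost when any 1 of 3 arrays was left out.

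In no comparison were 12 of the 54 genes called with the deposited values, namely Plvap, Vegfa, Angpt2, Ptprb, Erg, Sox18, Klf2, Notch1, Jag1, Vcam1, Ednrb and Procr. Their mean levels over the 4 groups ran from 7.49 to 7.94 for Plvap, 13.41 to 13.74 for Vegfa, 6.92 to 7.43 for Angpt2, 12.00 to 12.37 for Ptprb, 10.66 to 11.13 for Erg, 8.67 to 9.23 for Sox18, 6.89 to 7.31 for Klf2, 6.07 to 6.42 for Notch1, 8.72 to 9.10 for Jag1, 9.12 to 9.51 for Vcam1, 11.97 to 12.10 for Ednrb and 5.85 to 6.21 for Procr.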

How the data were processed

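Hearts of 22 mice were measured on Clariom S Mouse arrays, 1 array each. The authors deposited log2 intensities per probe set, made with RMA in the Transcriptome Analysis Console 4.0.1 per the submitters' processing notes. No source used here states if the 2 genotypes went through 1 joint normalization, and their array medians differed. The highest deposited value was 19.93, and it was not tested if the brightest genes are compressed. Arrays carry no read depth, so precision rests on how many there were per group.

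Samples were grouped by the genotype and treatment in their labels. A probe set was tested where its mean log2 value over the 22 arrays exceeded 4. Of 22206 gene probe sets, 19572 had 1 gene symbol in the platform annotation and 2634 were unnamed here. A linear model of the 4 group means was estimated in limma 3.58.1 (R 4.3.3) and moderated by eBayes, with 6 contrasts and Benjamini-Hochberg adjustment over the 21092 probe sets of each contrast. The interaction is the T3 difference in TRα1+m minus that in wild type. The script was tested on simulated data.

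Members and lists were chosen with earlier results of these data known. Lists are described by counts and medians and were not tested. Values per array are given, by role, for up to 2 genes with the smallest adjusted p on T3 in either genotype, for genes called in the interaction, and for up to 2 genes with the smallest adjusted p between genotypes on water that were also called after quantile normalization. Genes of other lists were named from the smallest adjusted p, up to 2 per list. Exceptions, chosen after their values were seen, are the erythroid list, Pf4, Lyve1, Pdpn and Reln. The rule that a genotype call hold in 3 scalings was also chosen after seeing the data. Promoters were taken from RefSeq (GRCm38.p6). Alternatives were quantile normalization, centred medians, other filters, array weights, trended and robust variances, contrasts fitted on their own groups, an unmoderated model with two-stage adjustment, a fold of at least 1.5, the replicate number as a block, and each array omitted in turn.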

Additional observations from a re-analysis of the deposited data

Results flagged for a closer look

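Among 100 groups of 5 or 6 arrays looked at (25 genes in 4 groups), 6 held an array far from the others, where chance alone gives about 1 in 20. Cldn5 stood at 10.91 on TRα1+m T3 array 4, against 10.01 to 10.18 on the others of that group, and at 10.08 on wild-type T3 array 4, against 9.15 to 9.48. Ace stood at 11.78 on TRα1+m T3 array 1, against 11.05 to 11.22 on the others. Jag1 stood at 8.44 on TRα1+m T3 array 3, against 8.75 to 8.84 on the others. Thbd stood at 9.80 on TRα1+m water array 5, against 10.20 to 10.30 on the others. Cd34 stood at 13.66 on wild-type water array 6, against 14.07 to 14.26 on the others.

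The T3 response was called as different between the genotypes for Aqp1, at 1.53 in the limma interaction, and for Cldn5, at -1.28, as described above. The Cldn5 call was lost when any of 7 arrays was left out, and the Aqp1 call was not lost without any single array.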

How the results depend on the processing

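The T3 counts stayed within 1.5 times their values under every alternative run. Without single arrays, 16 to 22 genes were higher and 2 lower on T3 in TRα1+m, and 15 to 18 higher and 2 lower in wild type. The interaction kept 1 to 2 genes more positive and 0 to 1 more negative, and an unmoderated model with two-stage adjustment left 0 more negative, where limma called Cldn5. Between genotypes, single arrays gave 9 to 14 higher and 10 to 12 lower on water, 14 to 16 and 4 to 8 on T3, and 29 to 33 and 3 to 4 for treated TRα1+m against untreated wild type.

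Scaling moved the genotype counts. Quantile normalization gave 5 higher and 19 lower on water, 7 and 10 on T3, and 19 and 5 for treated TRα1+m against untreated wild type. Centred medians gave 4 and 29, 1 and 23, and 10 and 11 in the same order, and calls in all 3 scalings numbered 4, 1 and 10 higher. A fold of at least 1.5 left 6 higher and 5 lower on water, and 20 higher and 1 lower against untreated wild type. On T3 it left 2 lower, and the higher count stayed within 1.5 times its value. The sign differed between scalings for 22 of the 54 genes on water, 23 on T3 and 18 against untreated wild type. Genes called with the deposited values, or given by array, that turned to the other sign included, on water, Flt4 (-0.03 by quantile normalization, -0.10 centred), Tek (-0.14 centred) and Thbd (-0.40 centred), on T3 Flt1 (-0.46 centred) and Tie1 (-0.37 centred), and against untreated wild type Icam1 (-0.07 in both) and Cd34 (-0.04 centred).

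Same-numbered arrays of different groups correlated at -0.27 to 0.33. Between wild type on water and wild type on T3 they correlated at 0.03 to 0.29, with 4 of 6 pairs over 0.1. Differently numbered arrays were not set beside them, so it was not tested if replicate numbers mark pairs or a batch. A replicate block gave 23 higher and 2 lower on T3 in TRα1+m, 17 and 2 in wild type, 11 and 11 between genotypes on water, 15 and 7 on T3, 29 and 4 against untreated wild type, and 1 and 1 in the interaction. No gene had another probe set to try, and the interaction has no smaller set of groups to be fitted on.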
